A study of Mus musculus with 2 samples.

Results

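Gpx2, Gpa33 and Ctse were 3 of the 479 genes measured by Xenium In Situ, an imaging method that reads RNA molecules in place on a slice of tissue and counts them per cell outline, in 2 sections of mouse tumour. They were chosen as gastrointestinal genes on the panel with earlier results of these sections known, and were read in cells with 80 or more gene counts and 3 or more counts of Krt8, a keratin of simple epithelia, divided by their count of the epithelial adhesion molecule Epcam into 0 to 1, 2 to 4, and 5 or more. The levels by section and by Epcam count are the values that chose the genes, so they are given as a description. The files give the identifiers ENSMUSG00000042808 for Gpx2, ENSMUSG00000000544 for Gpa33 and ENSMUSG00000004552 for Ctse.

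Gpx2 is the gastrointestinal glutathione peroxidase, a selenium enzyme that reduces hydroperoxides with glutathione and is best known from crypt epithelium of the gut and from tumours of the gut. Gpa33 is the A33 antigen, a cell surface protein of the immunoglobulin superfamily found on intestinal epithelium and on many tumours of the bowel. Ctse is cathepsin E, an aspartic protease of the pepsin family that works inside the cell, is abundant in surface mucous cells of the stomach, and is also made by some immune cells.

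The EKP and RKP sections each came from subcutaneous tumour grown by injecting cultured mouse cells of that name with Matrigel into both flanks of C57BL/6 mice that were 5 weeks old, and the labels call the tissue diffuse gastric cancer. The labels do not spell out the alleles behind the letters EKP and RKP. Each group was 1 section of 1 graft line, so there is no replicate, and every interval covers counting error only. Blood vessels, fibroblasts and immune cells in such grafts belong to the host, and the subcutaneous site is not the stomach. EKP held 261111 cells with a median of 84 gene counts, of which 133173 (51.0%) had 80 or more. RKP held 255744 cells with a median of 154, of which 201447 (78.8%) had 80 or more. The 2 sections shared 19 cell barcodes, and the highest negative control probe had 311 counts in EKP and 162 in RKP. Among stomach products on the panel, Muc5ac reached 71.5 counts per 1000000 gene counts (CPM) in the EKP section and 9.06 in the RKP section. Tff1 was at 38.8 and 35.2, Muc6 at 4.82 and 1.49, and Tff2 at 11.8 and 146. All these are levels in the cells with Krt8 3 or more and Epcam 5 or more. The control probe was at about 3.57 CPM in those EKP cells and 3.09 in those RKP cells, so Muc6, the gland mucin, was close to background and Muc5ac, the surface mucin, was low. In RKP cells gated on gland secretory markers, described further on, Tff2 was at 1887 CPM and Tff1 at 211.

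The RefSeq promoters of Gpx2 and Gpa33 are shown because these genes took different courses between the sections. Each is the stretch of 250 bases before the gene's start in GRCm38.p6, at chr12:76795555-76795804 on the minus strand for Gpx2 and at chr1:166129971-166130220 on the plus strand for Gpa33, and the capitals mark the letters ATAAA on either strand, which form the core of caudal homeobox sites.
Gpx2: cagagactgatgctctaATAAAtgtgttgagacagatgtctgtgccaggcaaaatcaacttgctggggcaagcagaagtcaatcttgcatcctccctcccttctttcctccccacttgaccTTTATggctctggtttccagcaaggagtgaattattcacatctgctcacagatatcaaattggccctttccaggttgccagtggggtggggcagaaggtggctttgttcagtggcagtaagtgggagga
Gpa33: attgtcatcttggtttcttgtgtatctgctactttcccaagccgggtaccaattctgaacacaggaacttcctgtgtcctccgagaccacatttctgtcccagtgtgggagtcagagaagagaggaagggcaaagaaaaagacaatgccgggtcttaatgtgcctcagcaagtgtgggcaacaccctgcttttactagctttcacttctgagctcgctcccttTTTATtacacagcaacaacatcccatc
Gpx2 held the letters on its own strand from 233 to 229 bases before the start and on the other strand from 129 to 125. Gpa33 held them on the other strand from 27 to 23 bases before the start. The letters occurred in 37.3% of 32851 mouse promoters of the same length. The letters TGACNNNGC of antioxidant response elements (10.2% of promoters), AGATAA of GATA sites (9.99%) and CAAAGTCCA of HNF4 sites (0.384%) were not in either window, and motifs were searched on both strands. No matching promoter entry was used for Ctse. These matches describe letters only, and no binding was measured.

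The rule gave 15785 cells with Epcam 0 to 1, 8103 with Epcam 2 to 4 and 40134 with Epcam 5 or more in EKP, and 26948, 14335 and 67903 in RKP. Cells with Epcam 5 or more held 35.4% of all gene counts in EKP and 40.9% in RKP. They held 79.1% of the Gpx2 counts in EKP and 68.9% in RKP. They held 85.4% and 85.7% of the Gpa33 counts, and 84.5% and 83.2% of the Ctse counts. Of 7 listed epithelial markers 6 were on the panel, among them Krt8 and Epcam, which the rule used. The other 4 were each at 100 CPM or more: Krt19 at 42624 CPM in EKP and 37677 in RKP, Cldn4 at 24845 and 27645, the cadherin Cdh1 at 21715 and 17663, and Cldn7 at 2247 and 2293. Levels of different genes are not compared here, because the probe sets behind them are not of equal efficiency, so each gene is set only against itself.

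At Epcam 2 to 4 and at 5 or more Gpx2 had the widest gap of the 3 genes between the sections, but not at Epcam 0 to 1 or, as given further on, in cells with no host marker count. In cells with Epcam 5 or more it was at 6704 CPM in EKP (95% Poisson interval 6656 to 6752, 75045 counts) and at 1677 CPM in RKP (1658 to 1695, 30355 counts), which made it 4.00-fold higher in EKP (exact 95% binomial interval 3.95 to 4.05). In the same comparison 24.7% of 465 genes were at least 2-fold lower in RKP and 14.4% at least 2-fold higher. Since the comparison chose the gene, nothing is read from its place among them. In cells with Epcam 2 to 4 Gpx2 was at 3344 CPM in EKP and 1180 in RKP, 2.83-fold higher in EKP, where 25.3% of genes were at least 2-fold lower in RKP. In cells with Epcam 0 to 1 the levels were 925 and 582 CPM, 1.59-fold higher in EKP. The order of the sections for Gpx2 was thus the same at every Epcam step, and the gap was wider in the cells with more Epcam.

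Gpa33 lay closer together. Its level at Epcam 5 or more was 10180 CPM in EKP and 7760 in RKP, 1.31-fold higher in EKP (1.30 to 1.32). At Epcam 2 to 4 it was at 3454 and 3407 CPM, and the interval of the ratio, 0.954 to 1.02 for RKP over EKP, included equal levels. At Epcam 0 to 1 it was at 540 and 328 CPM. In none of these 3 bands did Gpa33 reach the 2-fold mark used here as a rule of size, but in the cells with no Epcam count it did, at 363 CPM in EKP and 164 in RKP.

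Taken over each Epcam band as a whole, Ctse had the opposite order to Gpx2, but not throughout the top band. With 20 to 29 Epcam counts Ctse was at 8464 CPM in EKP and 7787 in RKP. With 30 or more it was at 9133 and 8261 CPM. At Epcam 5 or more it was at 7361 CPM in EKP and at 7814 CPM in RKP, with a ratio of 1.06 for RKP over EKP (1.05 to 1.07). At Epcam 2 to 4 it was at 2479 and 3827 CPM, 1.54-fold higher in RKP, and at Epcam 0 to 1 at 300.2 and 552 CPM, 1.84-fold higher in RKP. Again none of the 3 bands reached 2-fold, while the cells with no Epcam count did, at 153 CPM in EKP and 340.3 in RKP. The RKP excess at Epcam 5 or more rested on cells with gland marker counts, and without the cells gated on those markers, described further on, the ratio was 0.903.

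**Figure D1:**
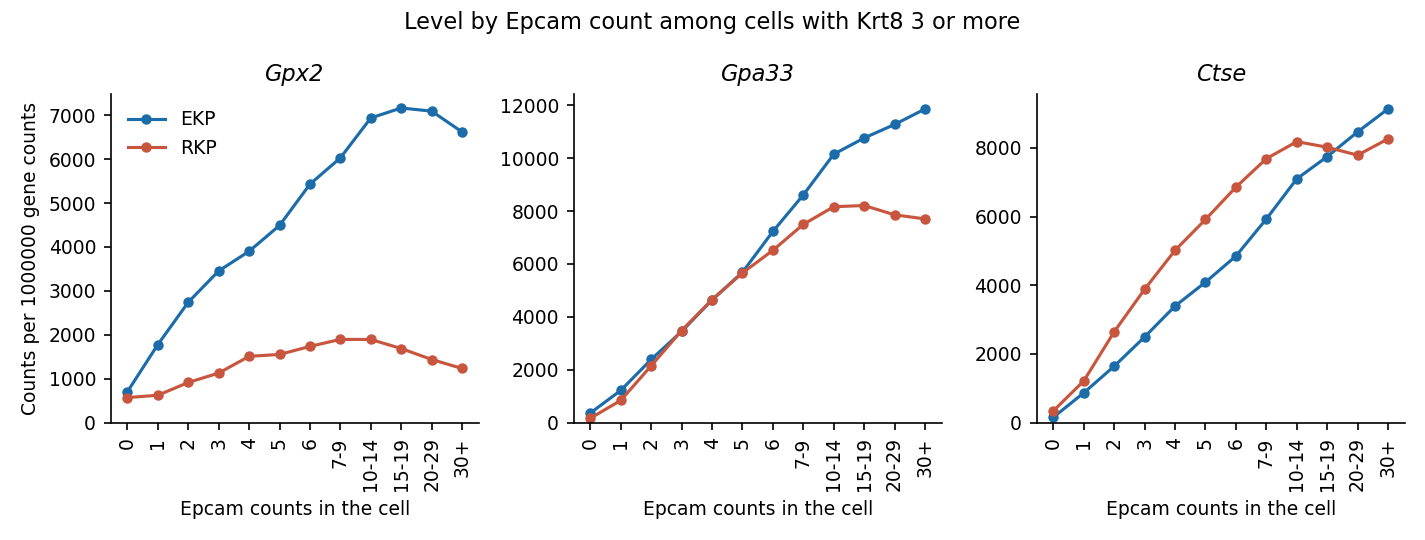
Level of each gene in counts per 1000000 gene counts (vertical axis, from 0, a scale of its own in each panel) by the number of Epcam counts in the cell (horizontal axis), among cells with Krt8 3 or more, with EKP in blue and RKP in red. The 2 Gpa33 lines lie together from 3 to 5 Epcam counts, at 5689 in EKP and 5661 in RKP at 5 counts, while the EKP line of Gpx2 lies above the RKP line at every step.

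Within each section all 3 genes were higher where Epcam was higher, which is how they were chosen. Over cells with Epcam 0 to 1, cells with Epcam 5 or more had 7.25-fold as much Gpx2 in EKP and 2.88-fold in RKP. For Gpa33 the ratio was 18.9 in EKP and 23.6 in RKP, and for Ctse 24.5 and 14.2. The cells with Epcam 0 to 1 were rich in host markers and unlike between sections. Fibroblast markers summed to 51923 CPM in EKP and 24689 in RKP, against 22809 and 16503 at Epcam 5 or more. Macrophage markers summed to 11368 and 18533 CPM, against 4605 and 6322. Krt19 was at 15252 CPM in EKP and 3879 in RKP. Ratios in cells with no immune, endothelial or fibroblast marker count are given at the end. At least 2-fold higher levels in this comparison were found for 12.1% of 472 genes in EKP and 17.8% of 427 in RKP, and at least 2-fold lower levels for 37.9% and 37.5%. Epcam, Krt8 and the members are read from the same cells. When the gates were read after drawing 80 gene counts from each cell, the Gpx2 ratio was 1.05 in EKP and 0.69 in RKP on the log2 scale, against 2.86 and 1.53, and so passed 2-fold in EKP but not in RKP. The same reading gave Gpa33 1.83 and 1.65 and Ctse 1.91 and 1.80. Drawing also lowers the Epcam counts and moves cells to lower bands. Cells with Epcam 5 or more went from 40134 to 13320 in EKP and from 67903 to 19364 in RKP. The part of depth in the lower ratios was not tested.

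The course over finer Epcam steps differed between genes. In EKP, Gpx2 went from 703 CPM in cells with no Epcam count to 7167 at 15 to 19 counts and 6621 at 30 or more. In RKP it went from 569 CPM to 1896 at 7 to 9 counts and 1233 at 30 or more. Gpa33 in EKP was highest in the cells with 30 or more Epcam counts (11865 CPM), whereas in RKP its highest step was 15 to 19 counts (8212 CPM). Just below and just above the upper Epcam limit Gpx2 was at 3903 CPM with 4 Epcam counts and 4490 with 5 in EKP, and at 1509 and 1552 in RKP. Gpa33 was at 4637 and 5689 CPM in EKP and 4652 and 5661 in RKP, and Ctse at 3393 and 4088 in EKP and 5015 and 5914 in RKP. At the lower limit, between 1 and 2 Epcam counts, Gpx2 was at 1776 and 2742 CPM in EKP and at 623 and 914 in RKP. Across the same limit Gpa33 was at 1218 and 2390 CPM in EKP and at 841 and 2151 in RKP, and Ctse at 866 and 1641 in EKP and at 1213 and 2644 in RKP. The steps for Gpa33 and Ctse were thus larger, as a ratio, at the lower limit than at the upper one.

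Depth within the cells with Epcam 5 or more moved with Gpx2 in opposite directions. In EKP its level was 4079 CPM in cells with 80 to 119 gene counts and 7607 in cells with 500 or more. In RKP it was 2173 and 1186 CPM in the same bins. At 200 to 299 gene counts, where both sections had many cells (14010 and 23897), Gpx2 was at 6343 CPM in EKP and 1770 in RKP. The sections kept their order for Gpx2 in each depth bin, with the smallest gap in the shallowest cells. For Ctse the order turned with depth. At 80 to 119 gene counts Ctse was at 7944 CPM in EKP and 12050 in RKP, and at 500 or more at 7680 and 6799.

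A group of cells in RKP carried all 3 genes at their highest levels. These cells were gated on 5 or more summed counts of the listed gland secretory markers Ambp, Gc, Cdhr5, Muc3a, Tm4sf4, Agr2 and Sftpd. The list mixes plasma proteins, a brush border cadherin and a transmembrane mucin, among others. The threshold of 5 was chosen after the data had been seen. The gate took 5344 cells in RKP (median 202 gene counts) and 2 in EKP. Their epithelial markers summed to 169431 CPM with all 6 at 100 CPM or more, their fibroblast markers to 6376 CPM and their macrophage markers to 2456 CPM. In them Gpx2 was at 7237 CPM (7083 to 7393), Gpa33 at 15056 (14834 to 15281) and Ctse at 26426 (26131 to 26723). They held 2.62% of the gene counts of RKP but 19.1% of its Gpx2, 10.7% of its Gpa33 and 18.0% of its Ctse counts.

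Among RKP cells with Epcam 5 or more, those in the gland gate (4543 cells) had 5.23-fold as much Gpx2 as those outside it, 2.07-fold as much Gpa33 and 4.04-fold as much Ctse. In this comparison 17.1% of 421 genes were at least 2-fold higher and 32.1% at least 2-fold lower. The levels went up with each step of the gland marker count. Gpx2 was at 1830 CPM with 1 gland count, 3482 with 2 to 4, 5777 with 5 to 9 and 8849 with 10 or more. Ctse was at 5909 CPM with no gland count and 7783, 15539, 24945 and 29510 over the same steps. Gpa33 was at 6959 CPM with none and at 8174, 11042, 14472 and 16068. The order of the steps was the same for all 3 genes, and Gpa33 spanned the narrowest range relative to its own level.

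The distance between the sections was different without the gland-gated cells. Gland markers summed to 112 CPM in EKP cells with Epcam 5 or more, with 0 of 7 markers at 100 CPM or more, and to 3352 CPM in RKP cells, with 7 of 7. Without the gland gate Gpx2 was at 1347 CPM in RKP and 4.98-fold higher in EKP, with 26.7% of 465 genes at least 2-fold lower in RKP. Gpa33 was then at 7308 CPM in RKP and Ctse at 6646. The Ctse order of the sections turned with this step, from a ratio of 1.06 to one of 0.903.

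**Figure D2:**
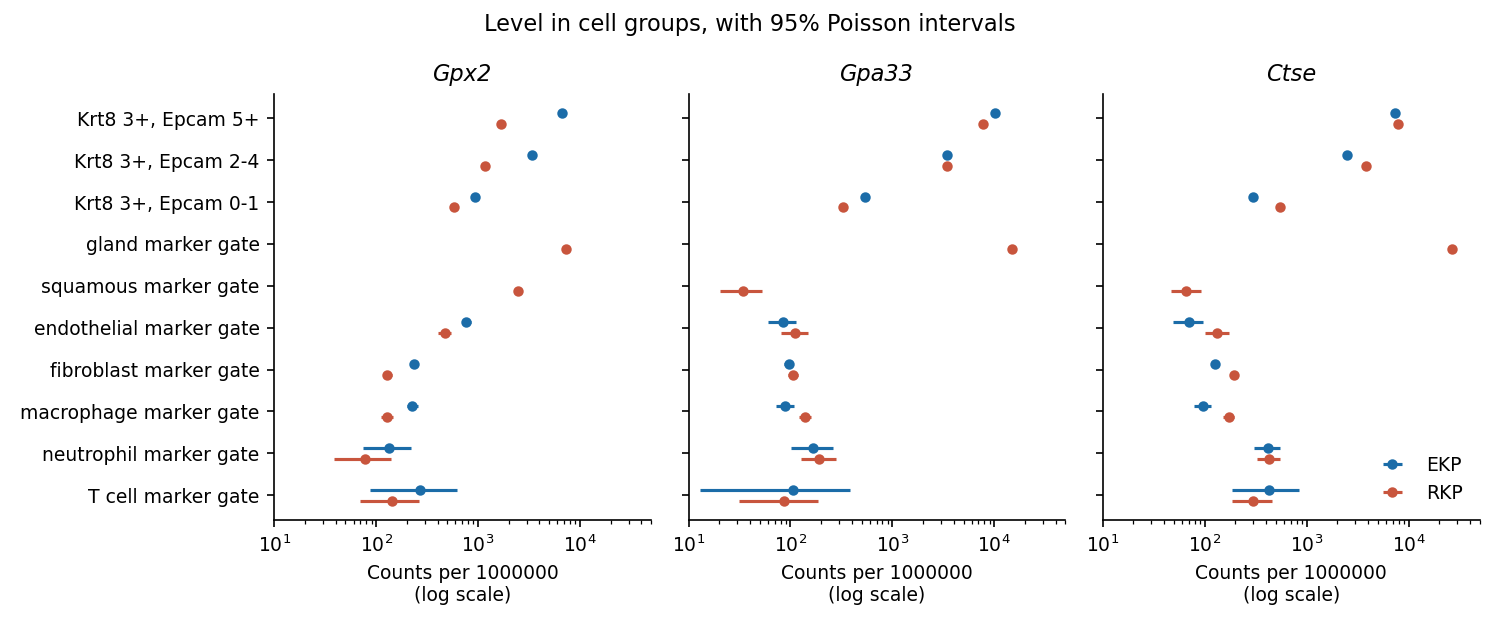
Level of each gene in counts per 1000000 gene counts (horizontal axis, log scale) in groups of cells (vertical axis), with 95% Poisson intervals for counting error, EKP in blue and RKP in red; groups under 50 cells are not drawn. In the squamous marker gate of RKP, Gpx2 lies at 2453 while Gpa33 and Ctse lie at 34.0 and 66.2.

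Cells gated on squamous markers held Gpx2 with hardly any Gpa33 or Ctse. In RKP 3240 cells had 5 or more summed counts of the squamous markers Krt5, Dsc3, Calm4 and Krt79, against 6 cells in EKP. This threshold was also chosen after the data had been seen. The squamous marker Ivl was left out of the gate. It was at 2919 CPM in EKP and 427 in RKP in cells with Epcam 5 or more. With Ivl included, the squamous markers of the 3240 gated RKP cells summed to 136875 CPM with 5 of 5 at 100 CPM or more. Krt8 was at 798 CPM in these cells and Epcam at 13958. Gpx2 was at 2453 CPM in them (2325 to 2586, 1371 counts). Gpa33 was at 34.0 CPM (19 counts) and Ctse at 66.2 (37 counts), with the highest control probe at 14.3 CPM. Cells with Krt8 3 or more and Epcam 5 or more in RKP therefore had 228-fold as much Gpa33 and 118-fold as much Ctse as the squamous-gated cells, but 0.684-fold as much Gpx2 (0.647 to 0.722). Of 433 genes, 32.1% were at least 2-fold higher and 36.7% at least 2-fold lower in this comparison. With each cell drawn down to 80 gene counts, 16.9% of squamous-gated cells had a Gpx2 count (15.6% to 18.2%), 0.278% a Gpa33 count and 0.525% a Ctse count.

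Gpx2 was not even among the squamous-gated cells. It was at 4411 CPM in the 404 cells with 5 to 9 squamous marker counts, 4581 in the 1185 cells with 10 to 19 and 1320 in the 1651 cells with 20 or more. Median gene counts in these steps were 105, 119 and 202, so the step with the most squamous counts was also the deepest, and the part of depth in this order was not tested.

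Cells gated on host markers served as a background for the epithelial genes, which is of limited use for Ctse because some immune cells also make it. The gated cells had no Krt8 and no Epcam count and 3 or more counts of a host class. Gpa33 was at 88.7 CPM in the macrophage gate of EKP and 138 in that of RKP, and at 96.6 and 106 in the fibroblast gate. Ctse was at 95.9 and 172 CPM in the macrophage gate, at 125 and 194 in the fibroblast gate and at 415 and 425 in the neutrophil gate. Gpx2 was at 226 and 128 CPM in the macrophage gate and at 233 and 129 in the fibroblast gate. After drawing 80 counts, Gpx2 was detected in 1.74% of macrophage-gated cells in EKP (median 140 gene counts) and 0.942% in RKP (median 142), against 32.2% and 11.7% of cells with Epcam 5 or more (medians 268 and 249). The background in these gates was thus well under the levels at Epcam 5 or more in both sections, but the neutrophil value of Ctse was of the size of its level at Epcam 0 to 1. In the T cell gate Ctse was at 428 CPM in EKP (8 counts) and at 300 in RKP (21 counts).

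The endothelial gate was an exception for Gpx2. In the 3044 endothelial-gated cells of EKP Gpx2 was at 769 CPM (695 to 849, 394 counts), 3.41-fold its level in the macrophage gate and 3.30-fold that in the fibroblast gate. In the 2652 cells of RKP it was at 472 CPM (407 to 544, 191 counts), 3.70-fold and 3.66-fold. Endothelial over macrophage ratios were at least 2-fold up for 24.5% of 458 genes in EKP and 36.8% of 437 in RKP, and at least 2-fold down for 27.3% and 16.7%. Over the fibroblast gate they were up for 16.8% of 446 and 17.4% of 419, and down for 32.1% and 30.3%. Gpa33 and Ctse did not follow: against the macrophage gate Gpa33 was at 0.946-fold in EKP and 0.805-fold in RKP, and Ctse at 0.733-fold and 0.778-fold. The gate's 4 endothelial markers on the panel summed to 76942 CPM in EKP and 81149 in RKP, while epithelial markers summed to 1800 and 2414 CPM with Krt8 and Epcam at 0 by the gate. In the endothelial-gated cells with no count of any epithelial marker (2392 and 1955 cells) Gpx2 was at 700 CPM (620 to 788) and 417 (346 to 499), against 205 and 115 in macrophage-gated cells so limited. In EKP it was at 203 CPM with 3 to 4 endothelial counts (only 3 Gpx2 counts, 41.8 to 592), 581 with 5 to 9 (454 to 733) and 853 with 10 or more (762 to 951), and in RKP at 307, 432 and 494, where the intervals overlap. Median gene counts went up over the same steps, from 99.5 to 118 and 184 in EKP and from 98 to 111 and 163 in RKP, and the part of depth was not tested. Among the endothelial-gated cells of RKP it was at 506 CPM (434 to 586) without Mmrn1, a gene of lymphatic endothelium and platelets, and at 198 (90.6 to 376) in the 326 cells with 3 or more Mmrn1 counts.

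Detection of the 3 genes in the same cells was compared after drawing 80 gene counts from every cell, so that depth was equal. At Epcam 5 or more in EKP, 32.2% of cells had a Gpx2 count (31.8% to 32.7%), 54.0% a Gpa33 count and 38.8% a Ctse count. In RKP the shares were 11.7% (11.5% to 12.0%), 45.2% and 37.3%. All 3 were found together in 6.07% of EKP cells and 3.69% of RKP cells, and none in 19.5% and 34.3%. Gpx2 with Gpa33 and without Ctse was the pattern of 11.6% of the cells in EKP and 2.63% in RKP. Gpa33 with Ctse and without Gpx2 made up nearly the same share in both, 16.3% and 16.2%.

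**Figure D3:**
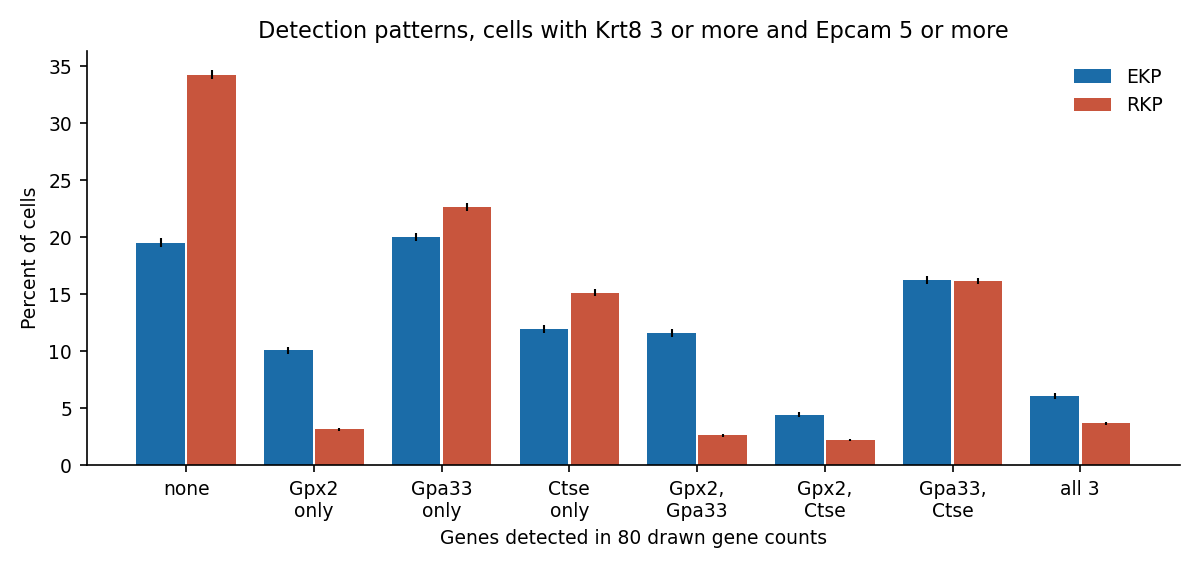
Percent of cells with Krt8 3 or more and Epcam 5 or more (vertical axis, from 0) in each of the 8 patterns of detection of Gpx2, Gpa33 and Ctse among 80 drawn gene counts (horizontal axis), EKP in blue and RKP in red, with 95% Clopper-Pearson intervals. The pattern with Gpx2 alone holds 10.1% of EKP cells and 3.18% of RKP cells, and the pattern with none holds 19.5% and 34.3%.

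At Epcam 5 or more Gpx2 and Ctse were found together less often than the product of their shares in EKP and more often in RKP. In EKP the share with both was 10.5%, 0.843 of the 12.5% that independent detection gives. In RKP it was 5.92%, 1.36 of the product of 4.37%. Put as shares of Ctse, 32.7% of Gpx2-positive and 41.6% of Gpx2-negative cells had a Ctse count in EKP, against 50.5% and 35.5% in RKP. Over the other genes detected in 1% or more of the cells, the median ratio with Gpx2 was 1.01 in EKP (230 genes) and 0.935 in RKP (237 genes). The median ratio with Ctse was 0.922 in EKP, with quartiles of 0.813 and 1.02, so the pair lay within the middle of the Ctse ratios there, and 0.942 in RKP, with quartiles of 0.786 and 1.03. In cells with fewer Epcam counts the EKP value was not under 1: the pair was at 1.03 times the product at Epcam 2 to 4 and 2.26 at Epcam 0 to 1 in EKP, and at 1.83 and 1.56 in RKP. The EKP ratio of Gpx2 and Ctse was under 1 in 10 of 10 successive parts of the file, from 0.756 to 0.954. The RKP ratio ranged from 1.00 to 1.47, and its lowest parts, at 1.00, 1.01 and 1.02, were close to the product. Pairs with other panel genes are not given by part. The parts are not replicates.

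The gland markers moved with the RKP ratio. Without the gland gate it was 1.19, and in the 53415 cells with no gland marker count 1.06, where 33.0% of Gpx2-positive and 31.0% of Gpx2-negative cells had a Ctse count. Inside the gate, where 84.1% of cells had a Ctse count, it was 1.03. In EKP nearly all cells (38974 of 40134) had no gland marker count, and the ratio in them was 0.840. With the Gpx2 count, the Ctse level in EKP went down, from 7902 CPM in cells with no Gpx2 count among the 80 to 6817 with 1, 5819 with 2 and 4504 with 3 or more (1884 cells, 4164 to 4865). In RKP, with gland-gated cells included, it went up, from 7773 to 12730, 18315 and 24924 CPM (344 cells, 23055 to 26905). The Epcam level over the same steps moved little, from 54641 to 53164 CPM in EKP and from 52403 to 53983 in RKP. Outside the gland gate in RKP, Ctse was at 6805 CPM in cells with no Gpx2 count among the 80 and at 9747 in cells with 1 or more.

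Gpa33 paired with both other genes without such a turn. With Ctse the ratio to the product was 1.07 in EKP and 1.18 in RKP, above 1 in 10 of 10 parts of each file. With Gpx2 it was 1.02 in EKP, above 1 in 6 of 10 parts, and 1.19 in RKP, above 1 in 10 of 10. In the cells with neither host nor gland marker counts, described further on, Gpa33 with Gpx2 was at 0.949 in EKP and 1.09 in RKP. The interval of the share with both included the product in each section there. In cells with Epcam 2 to 4, Gpa33 and Ctse were together at 1.47 times the product in EKP and 1.60 in RKP.

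The spread of counts among cells with Epcam 5 or more differed by gene and section. As variance over mean of the count among 80, Gpx2 stood at 1.65 in EKP and Ctse at 1.93 in RKP, against medians of 1.19 and 1.22 over genes at 100 CPM or more. Gpa33 was more even, at 1.10 and 1.16, below the median in both. In EKP 4.69% of cells had 3 or more Gpx2 counts among the 80, against 0.507% in RKP. Without the gland gate the RKP value of Ctse was 1.77 and that of Gpx2 1.23.

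Host transcripts within the cells with Epcam 5 or more moved with Gpx2, and not alike in both sections. These are counts of 21 markers of macrophages, neutrophils, T cells, fibroblasts and endothelium, which segmentation can assign to a cell from its neighbours. Fibroblast markers summed to 22809 CPM in EKP and 16503 in RKP in these cells, macrophage markers to 4605 and 6322, and endothelial markers to 1179 and 634. In EKP Gpx2 was at 4067 CPM in the 3276 cells with no host count, 5405 with 1, 6471 with 2, 7683 with 3 to 4, 7824 with 5 to 9, 7113 with 10 to 19 and 4714 with 20 or more. In RKP it was at 3292 CPM in the 7276 cells with none and 2576, 2103, 1783, 1407, 1057 and 732 over the same steps. Gpx2 in EKP thus had its lowest level in the cells without host transcripts and a peak at intermediate counts, while in RKP it was lower at each step. The RKP course was much flatter in cells with no gland marker count, from 1361 CPM with no host count to 1190 with 5 to 9, and went down to 665 with 20 or more.

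Gpa33 and Ctse had no such peak. Gpa33 went from 12327 CPM with no host count to 10733 with 5 to 9 and 6231 with 20 or more in EKP, and from 11569 to 7334 and 3848 in RKP. Ctse went from 9958 to 7625 and 4165 CPM in EKP, and from 14734 to 6574 and 4051 in RKP. For both genes the level was lower at each further step in each section. The EKP peak of Gpx2 was also found by fibroblast markers alone, at 4184 CPM with none and 7910 with 3 to 4. By macrophage markers alone Gpx2 went only from 6487 CPM with none to 7350 with 2. Among cells of 200 to 299 gene counts with no gland marker count, Gpx2 in EKP was at 4533 CPM with no host count and 7390 with 5 to 9, but its lowest level was then 3522 CPM with 20 or more host counts. At near-equal depth the peak at intermediate counts was thus present, and the lowest level was at the other end.

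The section difference of Gpx2 depended on this. In cells with no host marker count Gpx2 was 4067 CPM in EKP against 3292 in RKP, for a log2 ratio of -0.30 in place of -2.00, which is under the 2-fold mark. Gland marker counts were common among those RKP cells: 4033 of the 7276 had none, against 3148 of 3276 in EKP. With neither host nor gland marker counts Gpx2 was at 4114 CPM in EKP against 1361 in RKP, for a log2 ratio of -1.60. In those cells Gpa33 was at 12329 and 9229 CPM and Ctse at 9937 and 7619. Whether these marker counts come from neighbouring cells or from mixed cells cannot be told apart without positions.

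**Figure D4:**
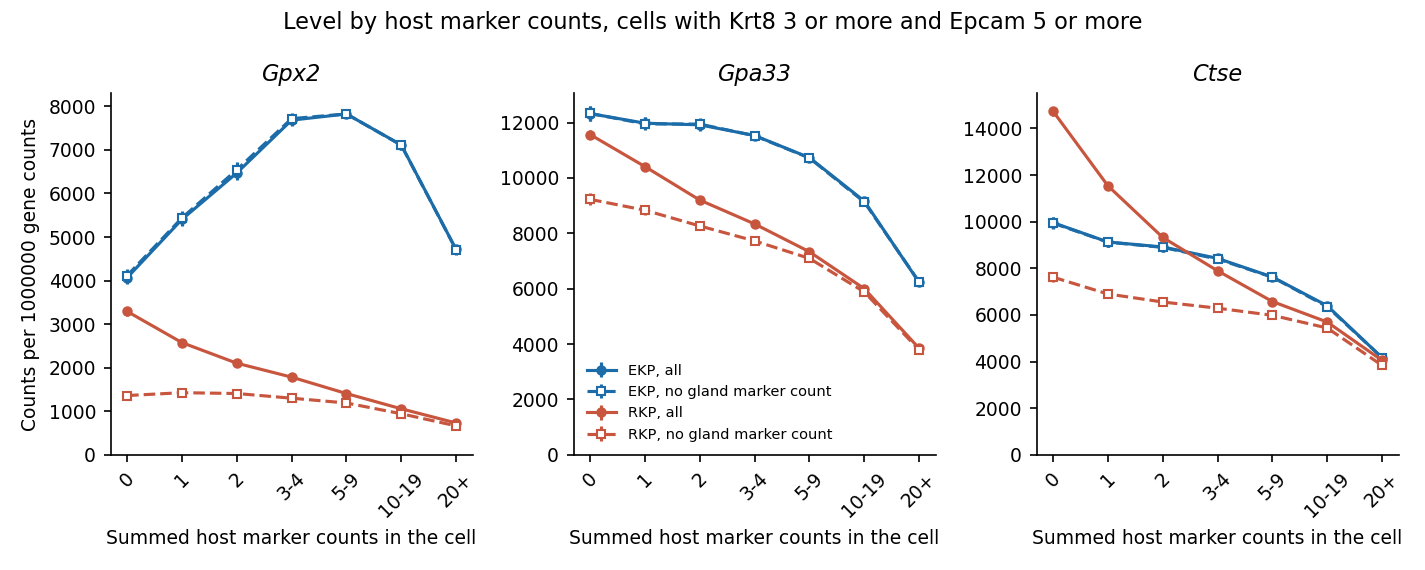
Level of each gene in counts per 1000000 gene counts (vertical axis, from 0, a scale of its own in each panel) by the summed count of 21 host markers in the cell (horizontal axis), for cells with Krt8 3 or more and Epcam 5 or more, with 95% Poisson intervals; solid lines are all such cells and dashed lines those with no gland marker count, EKP in blue and RKP in red. The EKP line of Gpx2 goes from 4067 at no host count to 7824 at 5 to 9, and in RKP the dashed line starts at 1361.

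Levels also varied within each section. The cells of each file were taken in 10 successive parts of their deposited order. At Epcam 5 or more Gpx2 ranged from 3405 to 9875 CPM in EKP (median 6815) and from 1252 to 3219 in RKP (median 1498). These ranges do not meet, but nothing is read from this. Gpx2 was chosen with its section levels known, the parts are not replicates, and the ranges of the other panel genes were not computed. Gpa33 ranged from 8979 to 11271 CPM in EKP and from 6370 to 10649 in RKP, which overlap. Ctse ranged from 4905 to 9979 CPM in EKP and from 4381 to 17769 in RKP, a range that contains that of EKP. The widest spread, 4.06-fold for Ctse in RKP, was 3.40-fold without the gland gate. The parts held between 454 and 9457 cells in EKP and between 2356 and 10885 in RKP.

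**Figure D5:**
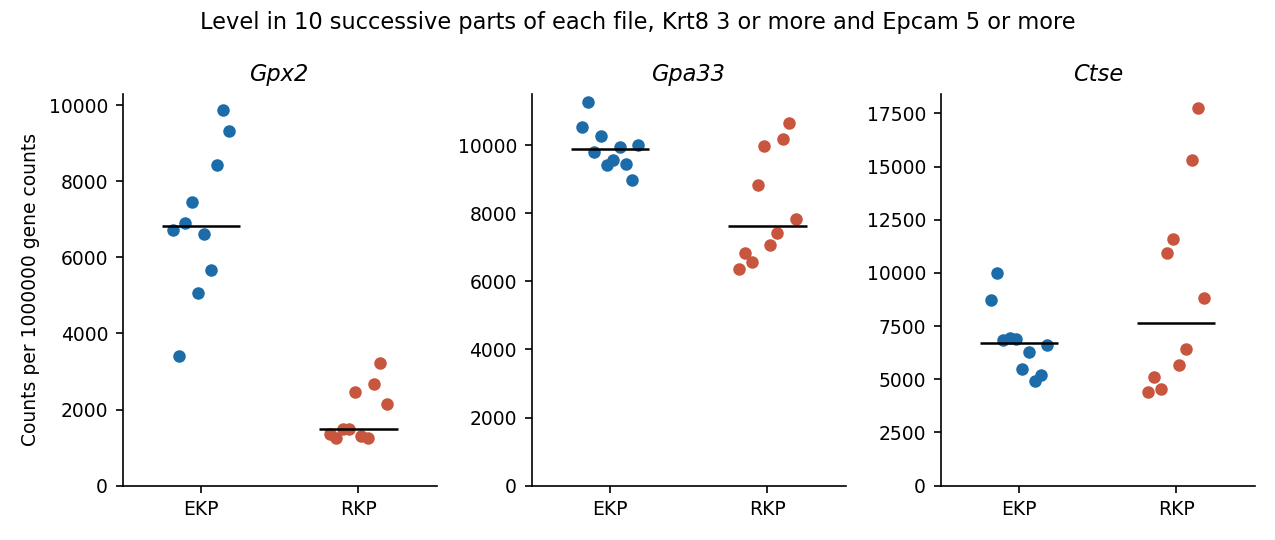
Level of each gene in counts per 1000000 gene counts (vertical axis, from 0, a scale of its own in each panel) in 10 successive parts of each file (points) with their median (line), for cells with Krt8 3 or more and Epcam 5 or more. The 10 EKP points of Gpx2 lie between 3405 and 9875 and the 10 RKP points between 1252 and 3219.

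Across 18 groups of cells from both sections, the genes whose log2(CPM + 10) followed a member most closely were found among 391 genes. For Gpx2 they were Epcam (Pearson r 0.90), Omp (0.89), Car2 (0.83), a carbonic anhydrase, and S100a14 (0.83), with Gpa33 at 0.74 and Ctse at 0.65. For Gpa33 they were the tight junction gene Cldn7 (0.99), the mucin Muc1 (0.98), Ctse (0.96) and the keratin Krt19 (0.96). For Ctse they were Cldn7 (0.97), Gpa33 (0.96), Muc1 (0.96) and the mucin Muc4 (0.96). The 18 groups share libraries and their Epcam gates, so these values describe likeness only. Gpa33 and Ctse stood on each other's short list, and Gpx2 stood on neither.

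Within the cells with Epcam 5 or more, genes were also ranked by how much higher they were in cells with a count of a member among the 80 than without, by the smaller of both sections. For Gpx2 the leading genes were Oit1 (1.45 in EKP and 2.04 in RKP on the log2 scale), Car2 (1.03 and 0.98), Prx (0.88 and 1.16) and Mettl7a2 (0.80 and 1.01). For Gpa33 they were Snap25 (0.45 and 0.37), Trim29 (0.34 and 0.34), Oit1 (0.31 and 1.54) and Ctse (0.31 and 0.72). For Ctse they were Pglyrp1 (0.40 and 1.68), the cornified envelope gene Ivl (0.38 and 1.12), the stem cell surface gene Prom1 (0.47 and 0.31) and the growth factor Pdgfb (0.32 and 0.29). Car2 stood on both lists of Gpx2, that over groups and that within cells.

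The wider list of gastric and gut genes held 55 names, of which 25 were on the panel. At Epcam 5 or more 13 of the 25 had a level in RKP at least 2-fold that in EKP and 3 were at least 2-fold lower, with a median log2 ratio of 1.78 against -0.32 over the 465 genes, of which 14.4% were at least 2-fold higher and 24.7% at least 2-fold lower. The list shares Ambp, Gc, Cdhr5, Muc3a, Tm4sf4 and Agr2 with the gland gate, so leaving out gated cells lowers these genes by construction. Cells with fewer than 5 gland counts stayed in. Without the gland gate the counts were the same and the median was 1.05, but the genes were not all the same. Tff3 went from 2.27 to -0.07 on the log2 scale and Aqp3 from 0.97 to 1.05. Muc4 was at 4850 CPM in EKP and 16698 in RKP, and Muc1 at 10303 and 13302. Cldn2, a claudin of leaky epithelia, was at 1093 and 11702 CPM, and Krt19 at 42624 and 37677. Gpx2, with its higher level in EKP, thus lay on the side of the 3 genes of the list that were lower in RKP, which were Sox2, Muc2 and Muc5ac, named after their values were seen. Against Epcam 0 to 1, the number at least 2-fold higher was 7 of 25 in EKP and 16 of 23 in RKP, beside 12.1% and 17.8% of all genes compared.

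Of the functional partners, little was on the panel. Of 28 genes of the response to oxidative stress only Sod3, the extracellular superoxide dismutase, was measured, at 486 CPM in EKP and 272 in RKP at Epcam 5 or more. It was lower at Epcam 5 or more than at 0 to 1 in both sections, by -2.48 and -1.31 on the log2 scale, the opposite order to Gpx2. Of 24 endosomal and lysosomal proteases and partners 4 were measured: Ctss, a cysteine cathepsin of antigen-presenting cells, at 7209 and 12879 CPM, Cd68 at 1117 and 1713, Lamp3 at 17.3 and 5.41, and Ctsg at 1.97 and 1.27. Ctss and Cd68 were at least 2-fold lower at Epcam 5 or more than at 0 to 1 in both sections, again opposite to Ctse. Cd68 is also a marker of the macrophage gate. The macrophage markers summed to 11368 CPM at Epcam 0 to 1 and 4605 at 5 or more in EKP. In RKP they summed to 18533 and 6322 CPM. The part of host transcripts in the orders of Sod3, Ctss and Cd68 was not tested. Of 23 genes of epithelial surface and junctions 9 were measured. Between sections 2 of the 9 had a level in RKP at least 2-fold that in EKP and 1 was at least 2-fold lower, beside 14.4% and 24.7% of all genes compared. Among the most abundant, Epcam itself was at 52771 and 51666 CPM, Krt8 at 49394 and 42542, and Cldn4 at 24845 and 27645.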

How the data were processed

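Transcripts were counted in 1 EKP and 1 RKP tumour section from 1 paraffin block. For each section the authors deposited raw counts as a matrix of features by cells, not normalized. The submitters' processing notes name Seurat 4.4.0 without a role. Segmentation, transcript quality limits, cell positions and the genome build are not stated in the sources used here. Counts were summed over the cells of a group and divided by their gene counts, times 1000000 (CPM). A gene entered a comparison when its sum exceeded the highest negative control probe on at least 1 side, and that level replaced a lower value. Intervals are exact 95% conditional binomial for ratios, Poisson for levels and Clopper-Pearson for shares. The mark of 2-fold is a rule of size. With 1 section a group there is no test. For detection each cell was drawn down to 80 gene counts without replacement (random seed 7). The pseudocount was 10 CPM. Named genes were the members, the 4 genes most like each by either measure, and up to 4 of highest level in each list. The rule left out a group of under 50 cells. The members and lists were chosen with earlier results of these data known. Doublets were not called. Python 3.11.15, numpy 2.4.6, scipy 1.17.1 and pandas 2.3.3 were used, and the interval and co-detection steps were tested on simulated data. For 9 ratios, 7 alternatives were planned and 4 added after seeing the data.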

Additional observations from a re-analysis of the deposited data

Results flagged for a closer look

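The co-detection of Gpx2 and Ctse in cells with Krt8 3 or more and Epcam 5 or more drew attention because it ran in opposite directions in the sections. As log2 of the observed share over the product of the single shares it was -0.25 in EKP and 0.44 in RKP. The difference between the sections was not tested, since each group is 1 section.

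The level of Gpx2 in the same cells by host marker counts also ran in opposite directions. As log2 of the level with 5 to 9 host counts over that with none it was 0.94 in EKP and -1.23 in RKP. This difference was not tested either. In RKP cells without gland marker counts the corresponding levels were 1190 and 1361 CPM.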

How the results depend on the processing

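Each value here is a log2 ratio, with the members in the order Gpx2, Gpa33 and Ctse. As reported, RKP over EKP at Epcam 5 or more was -2.00, -0.39 and 0.09, Epcam 5 or more over 0 to 1 was 2.86, 4.24 and 4.62 in EKP, and 1.53, 4.56 and 3.82 in RKP. The 6 Epcam ratios kept their direction under all 11 alternatives, and so did the section ratios of Gpx2 and Gpa33; that of Ctse, near 0 as reported, changed sign. Gpx2 lost its 2-fold difference between sections only in cells with no host marker count, and its 2-fold Epcam ratio in RKP under 2 alternatives. The cause of these moves was not tested. Left out below are values inside the reported counting interval.
Counts per cell gave -2.06, -0.46 and 0.02 between sections, 3.18, 4.56 and 4.94 in EKP, and 1.89, 4.92 and 4.18 in RKP. A total without the 10 most abundant genes gave -2.03, -0.42 and 0.06, then 3.09, 4.47 and 4.85, then 1.76, 4.79 and 4.05. With 20 or more gene counts per cell Gpa33 had Epcam ratios of 3.94 in EKP and 4.38 in RKP, and Ctse 4.23 and 3.70. With 160 or more the section ratios were -2.08, -0.41 and 0.03, the EKP ratios 2.94, 4.57 and 5.08, and the RKP ratios of Gpa33 and Ctse 5.11 and 4.12. Krt8 at 10 or more gave -2.13, -0.44 and 0.02, then 3.19, 4.53 and 5.95, then 1.33, 5.72 and 4.36. Gates read after drawing 80 counts gave -1.90, -0.42 and 0.19, then 1.05, 1.83 and 1.91, then 0.69, 1.65 and 1.80. Cells with no immune, endothelial or fibroblast marker count gave -0.30, -0.09 and 0.57, then 1.98, 2.35 and 3.32, then 2.01, 4.27 and 3.91.
The other alternatives were chosen after seeing the data. Without gland-gated cells the section ratios were -2.32, -0.48 and -0.15, and the RKP Epcam ratios of Gpx2 and Ctse 1.23 and 3.64. Without cells with any gland marker count they were -2.55, -0.55 and -0.31, and the RKP Epcam ratios 1.06, 4.64 and 3.66. With neither host nor gland marker counts they were -1.60, -0.42 and -0.38, the EKP ratios 1.90, 2.39 and 3.39, and the RKP ratios 0.97, 4.81 and 3.71. Leaving out squamous-gated cells moved no value beyond its counting interval. No paired analysis was possible because each group is 1 section, and no replicate could be left out.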
